A study of Mus musculus with 6 samples.

Results

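Heparan sulfate proteoglycans are proteins that carry long sulfated sugar chains, and 40 genes for these proteins and for the enzymes that build and edit the chains were examined, of 18193 genes named on the arrays. They had 88 of the 45101 probe sets. The members were chosen by gene symbol: the glypican (Gpc), syndecan (Sdc), Ndst, Sulf, Hs3st and Hs6st families, perlecan (Hspg2), agrin (Agrn), and the enzymes of the linker, the chain and its precursors. The tissue was the posterior end of mouse embryos at E8.5 (mixed 129S3;ICR background, both sexes, a median of 6 somites). The embryos were heterozygous for Noto-GFP, a reporter of a homeobox gene that marks the node and the forming notochord; Noto itself was not analysed here. Noto-GFP positive cells were compared with the Noto-GFP negative cells sorted from the same trypsin-dissociated tissue, so both groups carried the reporter allele. Each of 3 pools, of 23, 39 and 52 embryos, gave 1 array of each group (n = 3 arrays per group), and a pool is the replicate. The GFP-negative group is a mixture of the remaining cells of the dissected region. In bulk samples, fewer cells of a type and less RNA per cell cannot be told apart.

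A core protein receives a short sugar linker on a serine, the EXT enzymes extend the chain, and sulfotransferases and an epimerase modify it in the Golgi. Glypicans are held at the cell surface by a lipid anchor, syndecans cross the membrane, and agrin and perlecan lie in basement membranes. Hedgehog, FGF, WNT and BMP proteins bind the chains, and the pattern of sulfate groups sets how well they bind. The notochord secretes such signals and is wrapped in a sheath rich in matrix.

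Of 14 node and notochord markers, 11 were higher in GFP-positive cells and 0 lower, with summed intensities of 13130 to 15801 on GFP-positive arrays and 1931 to 2872 on GFP-negative arrays. Other lists moved too. Of 10 presomitic and somitic genes 6 were higher and 0 lower, and of 9 gut endoderm genes 3 were higher and 1 lower. For lateral and intermediate mesoderm, 7 of 10 genes were lower and 0 higher, and of 10 endothelial and blood genes 5 were lower and 0 higher. Of 10 surface ectoderm genes 5 were lower and 0 higher, and of 9 neural plate genes 1 was lower and 0 higher. With the pool as a block in the fit, 12 node and notochord, 9 presomitic and somitic and 5 gut endoderm genes were higher. In that fit 8 lateral and intermediate mesoderm, 10 endothelial and blood, 6 surface ectoderm and 1 gut endoderm genes were lower. Of the neural plate genes 2 were then higher and 3 lower. The arrays of pool 1 stood apart: the Gapdh control had a 3′ over 5′ signal ratio of 14 on the GFP-positive and 15.4 on the GFP-negative array of pool 1, against 1.60 to 2.22 on the other arrays. Results without pool 1 and without each array are given after the roles.

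Sequence upstream of 4 members is shown. The 4 were picked by hand from the genes with values given on every array and a RefSeq window (build GRCm38.p6). They are the basement membrane proteoglycan Agrn, the glypican Gpc5 and the sulfatase Sulf2, each higher in GFP-positive cells in all 3 pools, and Ugdh, which supplies a sugar precursor and was lower in all 3. Each run is the 250 bases before a start site, 5′ to 3′ on the gene's strand, with capitals at matches to the GC box GGGCGG or the forkhead core TGTTTNC on either strand.
Agrn, chr4:156197489-156197738, minus strand: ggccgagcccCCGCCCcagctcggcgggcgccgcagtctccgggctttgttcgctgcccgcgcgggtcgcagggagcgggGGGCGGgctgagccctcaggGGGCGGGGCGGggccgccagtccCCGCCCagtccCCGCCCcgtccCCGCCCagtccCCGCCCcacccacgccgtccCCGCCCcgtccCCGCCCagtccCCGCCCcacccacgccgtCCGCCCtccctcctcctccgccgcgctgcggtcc
Gpc5, chr14:115091965-115092214, plus strand: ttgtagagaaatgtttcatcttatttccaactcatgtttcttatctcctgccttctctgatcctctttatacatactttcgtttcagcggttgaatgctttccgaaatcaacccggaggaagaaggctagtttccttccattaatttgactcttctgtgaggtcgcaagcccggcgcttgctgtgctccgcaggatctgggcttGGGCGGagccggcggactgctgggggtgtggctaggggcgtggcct
Sulf2, chr2:166155286-166155535, minus strand: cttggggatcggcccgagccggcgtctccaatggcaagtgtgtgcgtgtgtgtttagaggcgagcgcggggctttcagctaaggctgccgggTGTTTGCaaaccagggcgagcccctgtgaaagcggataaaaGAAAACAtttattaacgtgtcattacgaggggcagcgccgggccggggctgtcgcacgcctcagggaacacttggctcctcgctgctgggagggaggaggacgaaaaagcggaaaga
Ugdh, chr5:65435843-65436092, minus strand: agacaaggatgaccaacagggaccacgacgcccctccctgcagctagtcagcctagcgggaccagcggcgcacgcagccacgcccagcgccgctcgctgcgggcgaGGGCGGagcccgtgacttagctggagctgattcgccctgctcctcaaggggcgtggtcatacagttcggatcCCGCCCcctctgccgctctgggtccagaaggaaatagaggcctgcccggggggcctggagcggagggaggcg
Agrn and Sulf2 each had another annotated start, which is not shown. The window at the other Agrn start held 2 GC box matches. That at the other Sulf2 start held 1 GC box match and 0 forkhead matches. Over the 11 member genes called in either fit or changed by at least 1 on the log2 scale, 10 had a window, 13 windows in all, and Sulf1 had none. The GC box, a common element of promoters rich in CpG, was found in 10 of the 13 windows, against 32.7% of all 32851 windows of that length. The forkhead core was found in 1 of the 13, the Sulf2 window printed above, which held 2 matches, against 17.8% of all windows. Neither the GLI core GGGTGGT nor the T-box core GGTGTGA was found in the 13 windows (0 of each), and 3.92% and 3.33% of all windows held them. Matches of different motifs overlapped in 0 of the 13 windows, and in the printed Agrn window 1 pair of its 12 GC box matches overlapped. The 13 windows held 5 to 35 CpG pairs, and 12 of them lay above the median of 6 over all windows. The printed Agrn window, with 35, held more than 97% of all windows did.

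Sulf1, Agrn and Gpc5 were higher in GFP-positive cells, and no member was lower, at an adjusted p under 0.05 (limma on log2(intensity + 32), Benjamini-Hochberg over all 12628 genes tested). Gpc5 was bright enough to be tested only through its GFP-positive arrays, so the filter itself favoured a higher value and its call is no independent evidence. Among the 34 members bright in both groups 2 were higher (5.88%), against 2.56% of such genes. Of 40 genes, 35 had a probe set bright enough to be tested, 64 of the 88 probe sets. The 3 calls are 8.57% of the 35 genes, where 2.95% of all genes were called higher and 1.71% lower. The unadjusted p was under 0.05 for 8 members with higher and 2 with lower values, against 12.7% and 10% of all genes. With the mean over a gene's kept probe sets, 4 members were higher (also Hs3st1) and 0 lower, where 3.42% and 1.84% of all genes were called. Over probe sets, 4 of 64 were higher and 0 lower, against 1.26% and 0.55% of all kept probe sets. These 4 belong to the same 3 genes, 2 of them to Sulf1. Probe sets of 1 gene are not independent, so this count adds no further support. The median log2 fold change, GFP-positive over GFP-negative, was 0.19 over the 35 members and 0.01 over all genes.

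With the pool as a block in the fit, 8 members were higher and 2 lower, 22.9% and 5.71% of the 35, where 7.76% of all genes were called higher and 5.99% lower. The additional members that rose were Sdc1, Gpc3, Hs3st1, Sulf2 and Papss1, and those that fell were Hs3st3b1 and Ugdh. Among the 34 members bright in both groups 7 were higher and 2 lower (20.6% and 5.88%), against 7.35% and 5.81% of such genes overall. The members' share of lower calls was near that of all genes. Over probe sets 9 of 64 were higher and 2 lower with the block, where 4.93% of all kept probe sets were called in each direction. These belong to the same 8 and 2 genes, with Sulf1 counted by 2 probe sets. In 15 of the 35 genes the GFP-positive array was the higher one in all 3 pools, and in 5 it was the lower one in all 3, against 28.4% and 24.9% of all genes.

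**Figure D1:**
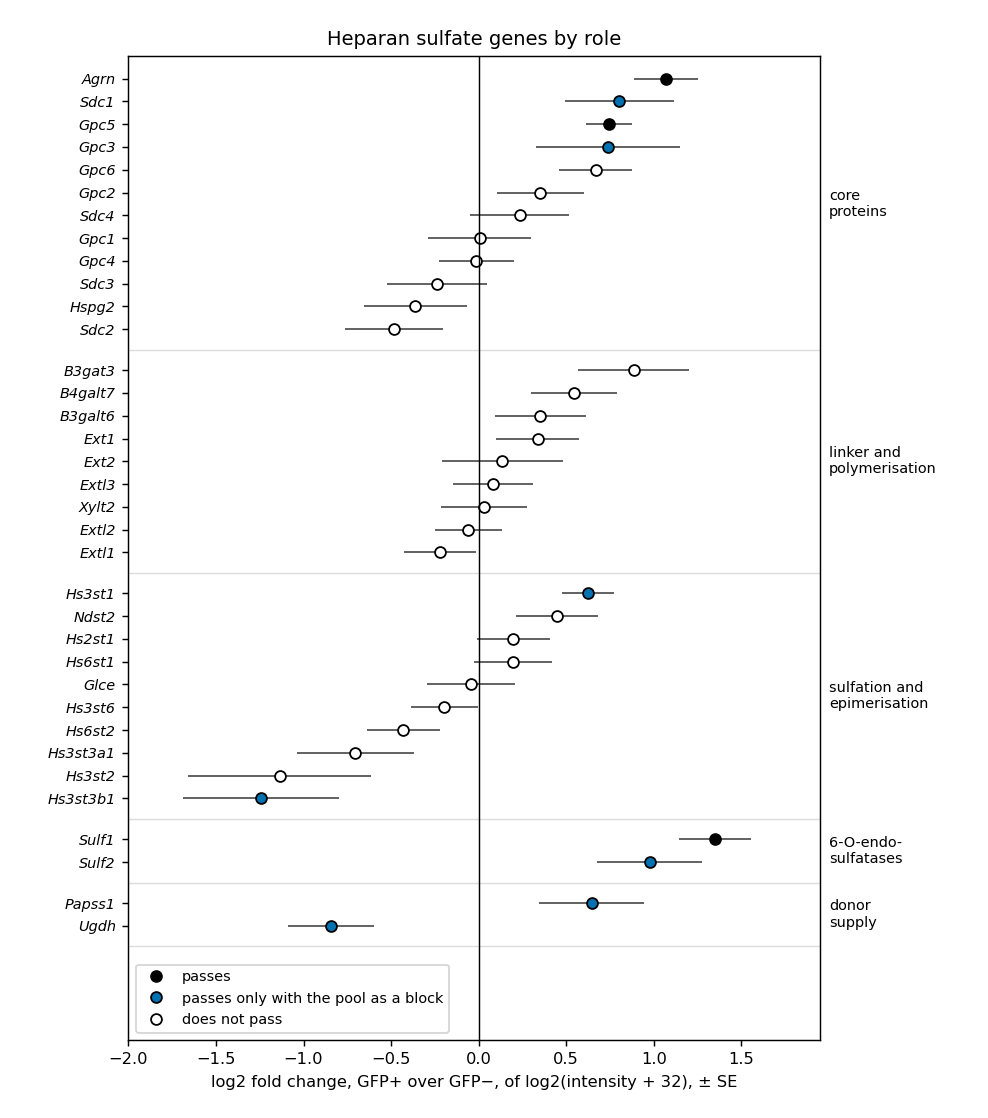
Log2 fold change of each of the 35 tested genes, GFP-positive over GFP-negative, with its standard error, grouped by role and sorted within each role. Filled black points passed (Sulf1 at 1.35, Agrn at 1.07 and Gpc5 at 0.74), blue points passed only with the pool as a block, and open points passed in neither fit. Gpc5 was tested only through its GFP-positive arrays.

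On the log2(intensity + 32) scale, which shrinks dim genes, the highest value among the 35 genes was that of Sulf1, an extracellular sulfatase. Of this pair of enzymes 1 was higher, and both were with the block. Sulf1 and Sulf2 are secreted enzymes that remove sulfate from the 6-O position of finished chains outside the cell. Sulf1 had intensities of 2759, 1902 and 2217 in GFP-positive pools 1, 2 and 3, against 980, 825 and 812 in GFP-negative pools. Every GFP-positive array lay above every GFP-negative array, and the differences within pools were 1.46, 1.17 and 1.41 on the log2 scale. Mean intensities were 2293 ± 433 in GFP-positive and 872 ± 93.5 in GFP-negative cells (SD, n = 3 each). Sulf1 rose by 1.35 ± 0.20 (SE) on the log2 scale, with an adjusted p of 0.0123, and ranked at 164 of 12628 genes ordered by fold change. A second kept probe set of Sulf1 had 2110, 1403 and 1714 in GFP-positive cells, against 523, 401 and 394 in GFP-negative cells. That probe set rose by 1.90 ± 0.23, with an adjusted p of 0.00753 over probe sets.

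Sulf2 had 2737, 1976 and 2056 in GFP-positive pools, against 1678, 733 and 1128 in GFP-negative pools. The groups did not overlap, and the highest GFP-negative value was that of pool 1. Its log2 fold change of 0.98 ± 0.30 missed the threshold at an adjusted p of 0.105, and passed in the blocked fit (adjusted p = 0.0161). The other kept probe sets of Sulf2 had smaller log2 fold changes, 0.41 ± 0.42 and 0.35 ± 0.29, and passed in neither fit. The mean over its 3 kept probe sets gave 0.58 with an adjusted p of 0.179. The probe set that stands for the gene is of a type (x_at) that can bind related sequences.

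**Figure D2:**
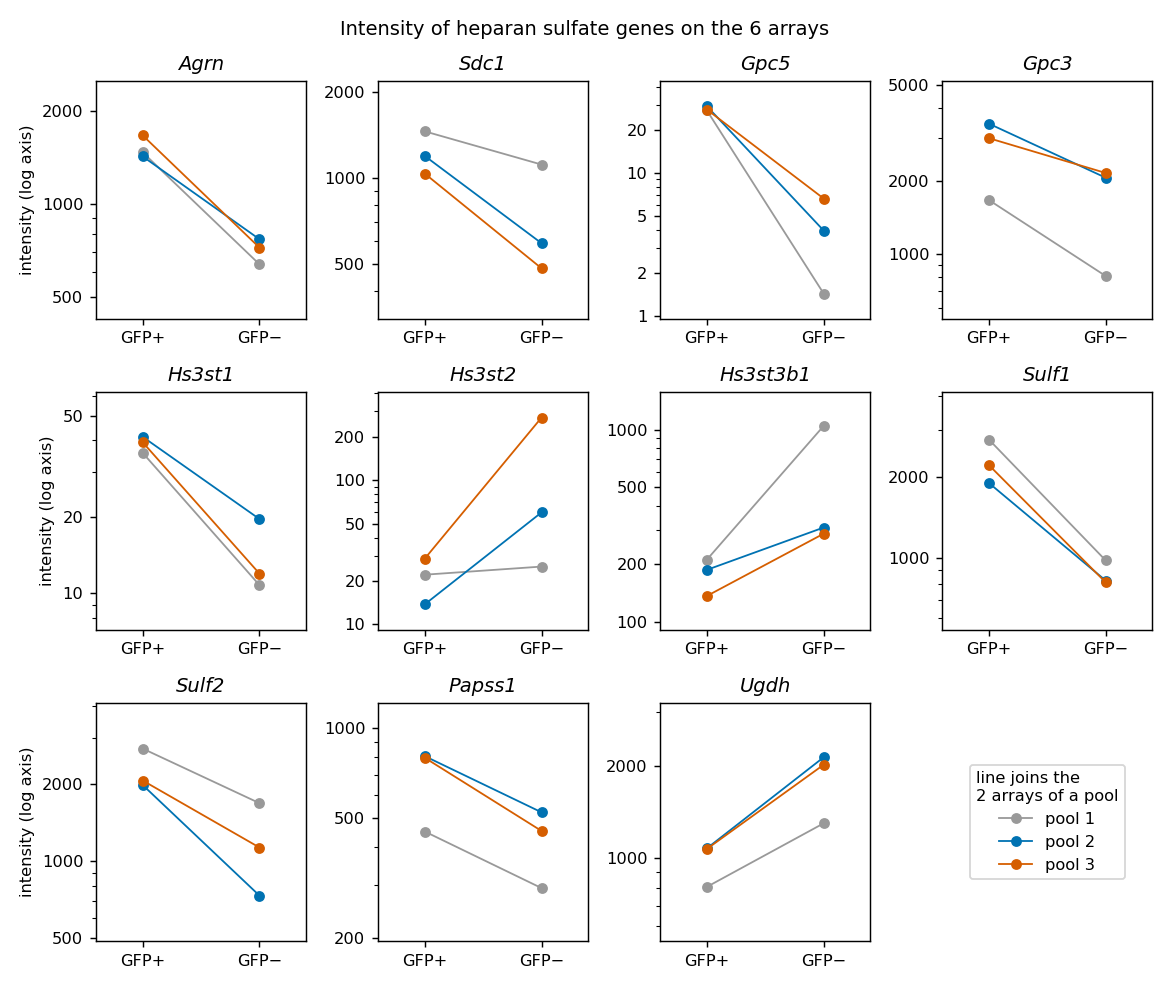
Deposited intensity (log axis, a separate scale in each panel) of the 11 genes that passed in either fit or changed by at least 1 on the log2 scale, with GFP-positive arrays at the left and GFP-negative arrays at the right of each panel. Lines join the arrays of a pool; Sulf1, Agrn and Gpc5 separate the groups in every pool, and Hs3st2 separates them in pools 2 and 3 but hardly in pool 1.

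Among the 12 core proteins, all of which were tested, 2 were higher, 0 lower and 10 did not pass. With the block 4 were higher, 0 lower and 8 did not pass. Among all genes 2.95% were called higher and 1.71% lower, and 7.76% and 5.99% with the block. The log2 fold changes of the 12 core proteins ran from -0.48 to 1.07 with a median of 0.29. Both counts of higher core proteins include Gpc5, which was tested only through its GFP-positive arrays, so the filter favoured a higher value. Neither the glypicans nor the syndecans had values of 1 sign.

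Agrin, known for clustering acetylcholine receptors at the nerve-muscle synapse and as a basement membrane component, was one of the 2 core proteins that passed without the block. Agrn had 1472, 1428 and 1671 in GFP-positive pools, against 638, 769 and 722 in GFP-negative pools. No array of one group reached the range of the other. Agrn averaged 1523 ± 129 in GFP-positive and 710 ± 66.6 in GFP-negative cells (SD, n = 3 each). It rose by 1.07 ± 0.18 (adjusted p = 0.0192), and the differences within pools were 1.17, 0.87 and 1.17. Perlecan, the other basement membrane core protein, had 207, 211 and 262 in GFP-positive pools, against 182, 341 and 422 in GFP-negative pools. Its groups overlapped, and its value of -0.36 ± 0.30 did not pass (adjusted p = 0.493).

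Of the glypicans, Gpc5 passed at a dim level. Gpc5 had 27.5, 29.4 and 27.8 in GFP-positive pools, against 1.43, 3.95 and 6.62 in GFP-negative pools. GFP-positive values lay a little above the array medians of 19.8 to 22.9, and GFP-negative values lay under the 40th percentiles of their arrays, 14.3 to 18.4, so the GFP-negative level is near background. Gpc5 rose by 0.74 ± 0.13 (adjusted p = 0.0216). This value depends on the offset: it was 1.15 with an offset of 16 and 0.44 with one of 64, and it passed with each. Gpc5 was tested only through its GFP-positive arrays and the filter favoured a higher value, so these calls are no independent evidence.

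Gpc3, whose loss causes an overgrowth syndrome in humans and which binds hedgehog proteins in mouse, was a bright member whose level differed between pools. Gpc3 had 1669, 3452 and 3006 in GFP-positive pools, against 810, 2064 and 2159 in GFP-negative pools. The GFP-positive array of pool 1 lay below the GFP-negative arrays of pools 2 and 3, so the groups overlapped, but the GFP-positive array was higher in all 3 pools (by 1.01, 0.73 and 0.47). Its log2 fold change of 0.74 did not pass (SE 0.41, adjusted p = 0.319) and did with the block (SE 0.16, adjusted p = 0.028).

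Gpc6 depended on the probe set. The one with the highest mean had 244, 184 and 217 in GFP-positive pools, against 97.4, 134 and 140 in GFP-negative pools, a log2 fold change of 0.67 ± 0.21 (adjusted p = 0.109). Of its 4 other kept probe sets 3 had the opposite sign, the lowest at -0.49, and the mean over all 5 was -0.04. Without pool 1 another probe set had the highest mean and stood for the gene, at -0.88 (adjusted p = 0.00393). No direction is given for Gpc6. Gpc1, Gpc2 and Gpc4 had values of 0.01 ± 0.29, 0.35 ± 0.25 and -0.01 ± 0.21 and passed in neither fit; the other kept probe set of Gpc4 had 0.70 ± 0.54.

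Of the syndecans, Sdc1 was the one that passed with the block. Sdc1, the syndecan of epithelia, had 1452, 1191 and 1033 in GFP-positive pools, against 1111, 589 and 481 in GFP-negative pools. The groups overlapped through the GFP-negative array of pool 1, which lay above the GFP-positive array of pool 3. The difference was 0.80 ± 0.31 on the log2 scale (adjusted p = 0.175, and 0.0317 with the block). All 4 kept probe sets of Sdc1 had positive values, 0.33 to 0.81. The one that stands for the gene is of the x_at type, the other 3 did not pass even with the block, and the mean over all 4 had an adjusted p of 0.116. Sdc2, the syndecan known from mesenchyme, had 179, 151 and 192 in GFP-positive pools, against 158, 337 and 305 in GFP-negative pools, and its value of -0.48 ± 0.28 did not pass (adjusted p = 0.337). Sdc3 and Sdc4 had -0.24 ± 0.28 and 0.23 ± 0.28 and passed in neither fit.

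The enzymes that build the linker and the chain showed no call in either fit: of 9 tested, 0 were higher and 0 lower in limma, also with the block. Among all genes 2.95% were called higher and 1.71% lower, and 7.76% and 5.99% with the block. A count of 0 among 9 therefore does not set these enzymes apart. The 1 gene of the 9 with an unadjusted p under 0.05 was B3gat3. B3gat3, which adds the glucuronic acid that completes the linker, had 51.5, 122 and 120 in GFP-positive pools, against 33.7, 63.8 and 17.3 in GFP-negative pools. The groups overlapped through pool 1, and the fold change was 0.88 ± 0.32 (adjusted p = 0.151, and 0.0542 with the block). The linker galactosyltransferases B4galt7 and B3galt6 had 0.55 ± 0.25 and 0.35 ± 0.26, and the xylosyltransferase Xylt2 had 0.03 ± 0.24 at a dim level. The chain polymerase subunits Ext1 and Ext2 had 0.34 ± 0.24 and 0.14 ± 0.35. Extl3, which starts the chain, had 0.08 ± 0.23, and Extl2 and Extl1 had -0.06 ± 0.19 and -0.22 ± 0.20.

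Of the 10 tested enzymes that sulfate or epimerise the chain, limma called 0 higher and 0 lower, and 1 of each with the block, Hs3st1 and Hs3st3b1. These were also the 2 with an unadjusted p under 0.05. Among all genes 2.95% were called higher and 1.71% lower, and 7.76% and 5.99% with the block. Counts this small do not set the 10 enzymes apart. None of the enzymes of the earlier steps passed in either fit. Hs2st1, the 2-O-sulfotransferase, had a log2 fold change of 0.20 ± 0.21, the epimerase Glce had -0.04 ± 0.25, and the N-deacetylase and N-sulfotransferase Ndst2 had 0.45 ± 0.23. The 6-O-sulfotransferases, which add the group that Sulf1 and Sulf2 remove, had 0.19 ± 0.22 for Hs6st1 and -0.43 ± 0.21 for Hs6st2. Hs6st2 had 443, 328 and 380 in GFP-positive pools, against 462, 593 and 526 in GFP-negative pools, with no overlap, and did not pass (adjusted p = 0.259).

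The 3-O-sulfotransferases, which act last and on few sites, differed among themselves. Hs3st1, which makes the site that binds antithrombin, had 35.7, 41.3 and 39.3 in GFP-positive pools, against 10.7, 19.6 and 11.9 in GFP-negative pools. The groups did not overlap, and 2 of the 3 GFP-negative values lay below the 40th percentiles of their arrays. Its log2 fold change of 0.62 ± 0.15 did not pass (adjusted p = 0.0528) and did with the block (adjusted p = 0.0386). With an offset of 64 it was 0.40. Hs3st3b1 had 210, 186 and 136 in GFP-positive pools, against 1046, 309 and 287 in GFP-negative pools. The GFP-negative array of pool 1 was far above all others. The fold change was -1.24 ± 0.45 (adjusted p = 0.151, and 0.0308 with the block), and it was -0.67 without that array. Its 2 other kept probe sets were dim, at -0.35 and -0.05.

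Hs3st2 and Hs3st3a1 passed in neither fit with all pools. Hs3st2 had 22.1, 13.8 and 28.5 in GFP-positive pools, against 25.1, 59.7 and 271 in GFP-negative pools. GFP-negative pool 3 alone was bright, pool 1 differed by -0.08, and the value was -1.14 ± 0.52 (adjusted p = 0.242). Without GFP-negative array 3 it was -0.45, and without pool 3 -0.54. The probe set is of the x_at type. Hs3st3a1 had 16.9, 35.9 and 30.1 in GFP-positive pools, against 22.7, 107 and 84.6 in GFP-negative pools, at -0.70 ± 0.34 (adjusted p = 0.255). Hs3st6 was dim on all arrays, at -0.20 ± 0.19.

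The precursor enzymes changed in opposite directions when the pool was a block. Papss1, which makes the sulfate donor used by all sulfotransferases, had 452, 806 and 796 in GFP-positive pools, against 293, 524 and 454 in GFP-negative pools. Both arrays of pool 1 were low and the groups overlapped, and the differences within pools were 0.58, 0.59 and 0.77. The fold change was 0.65 ± 0.30 (adjusted p = 0.246, and 0.0366 with the block). Ugdh makes UDP-glucuronic acid, a precursor of heparan sulfate and also of chondroitin sulfate and hyaluronan. Ugdh had 808, 1078 and 1074 in GFP-positive pools, against 1302, 2137 and 2021 in GFP-negative pools. The groups did not overlap, and the differences within pools were -0.67, -0.97 and -0.89. Its value was -0.84 ± 0.24 (adjusted p = 0.0913, and 0.0156 with the block).

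**Figure D3:**
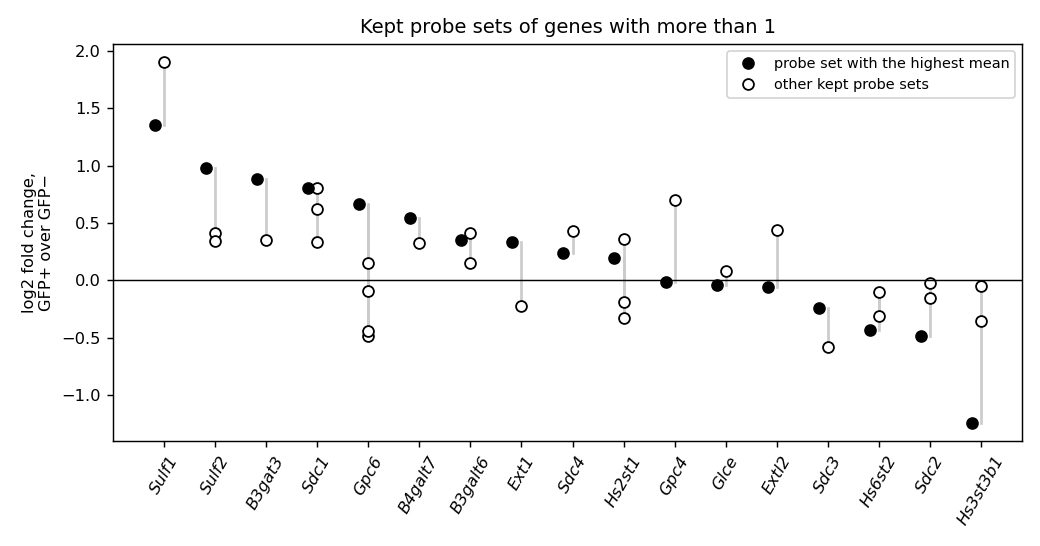
Log2 fold change, GFP-positive over GFP-negative, of every kept probe set of the 17 genes with more than 1; black points mark the probe set with the highest mean, which stands for the gene, and open points the others. Of the 17 genes, 6, among them Gpc6 and Gpc4, had an open point on the other side of 0, while both probe sets of Sulf1 and all 4 of Sdc1 had positive values.

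Groups were fully separated for 6 members with higher GFP-positive values (Agrn, Gpc5, Hs3st1, Sulf1, Sulf2 and, by 1 of its 5 probe sets, Gpc6) and for 3 with lower values (Hs6st2, Hs3st3b1 and Ugdh). Among all genes, 15.6% and 12.2% were separated in these ways. Genes with no probe set kept were Hs3st4, Hs6st3, Ndst3, Ndst4 and Papss2; none of their probe sets was above 12.3 on a GFP-positive or 25.8 on a GFP-negative array. Ndst1, Xylt1 and Hs3st5 had no probe set with that 1 symbol and were not analysed here.

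Results differed between pool 1 and the other pools. Without pool 1, 11 members were higher and 9 lower of 37 tested, 29.7% and 24.3%, where 18.9% and 18.5% of all genes were called. The 3 genes called with all arrays were among the 11. The others that were higher were B3gat3, Gpc3, Hs3st1, Ndst2, Papss1, Sdc1, Sdc4 and Sulf2. The 9 that were lower were Gpc6 (through another probe set), Hs3st2, Hs3st3a1, Hs3st3b1, Hs6st2, Hspg2, Papss2, Sdc2 and Ugdh. Papss2 was tested there only through its GFP-negative arrays and Gpc5 only through its GFP-positive arrays. Among the 33 members bright in both groups, 10 were higher and 8 lower (30.3% and 24.2%), against 19.1% and 17.3% of such genes overall. Hs3st2 and Hs3st3a1 had -1.66 and -0.97 there (adjusted p = 0.027 and 0.00404). Values without pool 1 were -0.80 for Sdc2 and -0.62 for Hspg2 (adjusted p = 0.00634 and 0.0206), whereas within pool 1 these genes differed by 0.15 and 0.16. In 6 genes, pools 2 and 3 had one sign and pool 1 the other: Sdc4 was higher, and Gpc4, Hspg2, Sdc2, Ext2 and Extl1 were lower, in pools 2 and 3. Sulf1 and Agrn had 1.29 and 1.02 without pool 1. In blocked fits, 12 members were higher and 9 lower without pool 1 (21.5% and 21.6% of all genes), 3 and 2 without pool 2 (3.62% and 2.85%), and 4 and 1 without pool 3 (3.67% and 2.52%). Each of these fits had 1 residual degree of freedom, so its calls rest largely on variance estimates shared across genes. Without pool 1 the lower members were 24.3% of those tested in the blocked fit, near the share of all genes.

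**Figure D4:**
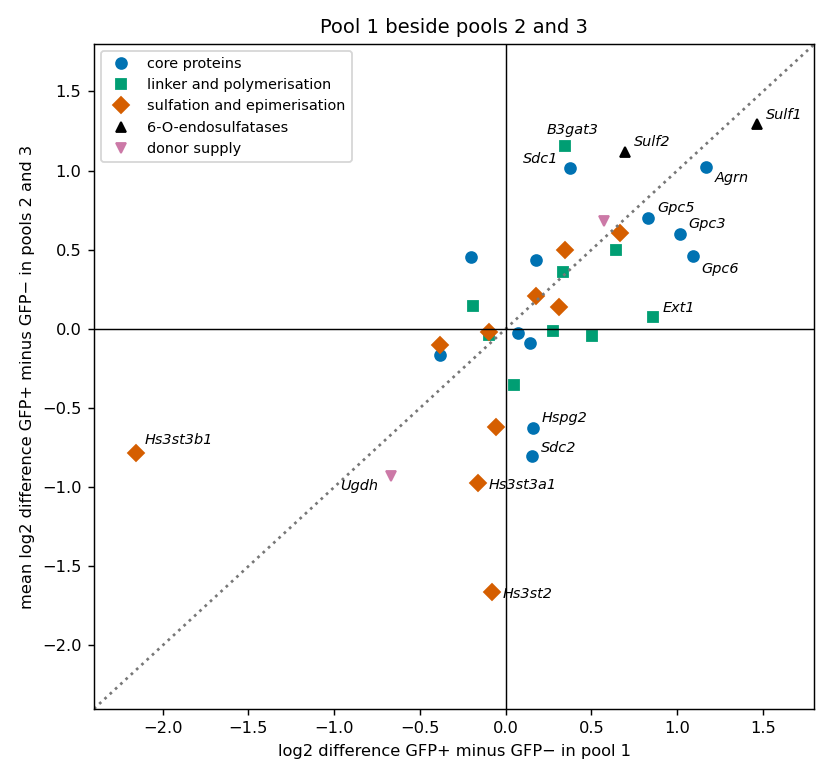
Difference GFP-positive minus GFP-negative on the log2(intensity + 32) scale in pool 1 (horizontal) and its mean over pools 2 and 3 (vertical) for the 35 tested genes, marked by role; the dotted line marks equal values. Sulf1 and Agrn lie near the line, Hs3st2 at -0.08 and -1.66 and Hs3st3b1 at -2.16 and -0.79 lie far from it.

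Single arrays also decided the calls. Without GFP-positive array 2, GFP-positive array 3 or GFP-negative array 2, and without pool 2 or pool 3, limma called 0 members higher and 0 lower, while the unadjusted p was under 0.05 for 4 to 7 members with higher and 1 or 2 with lower values, where it was for 4.9% to 8.75% and 3.48% to 6.62% of all genes. In those fits few genes of any kind were called higher or lower: 0.59% and 0.164% when GFP-positive array 2 was left out, 0.551% and 0.131% when array 3 of that group was, and 0.596% and 0.139% when GFP-negative array 2 was. The shares were 0.0776% and 0% without pool 2, and 0.409% and 0.055% without pool 3. Without GFP-negative array 3 the 1 call was Gpc5, where 1.09% and 0.32% of all genes were called. Without GFP-positive array 1 the 2 calls were Agrn and Sulf1, where 2.25% and 1.56% were called. Without GFP-negative array 1 there were 6 higher and 6 lower members, where 11.3% and 10.9% were called. Fold changes moved less than the calls: over the 9 fits that left out an array or a pool, Sulf1 ranged from 1.21 to 1.48 and Agrn from 1.00 to 1.17. Gpc5 ranged from 0.69 to 0.80 over the 6 of these fits in which it was tested. Of the members called with the block alone, Gpc3 varied most in proportion, between 0.29 (without GFP-negative array 1) and 1.05. Sulf2 lay between 0.68 and 1.26, Sdc1 between 0.56 and 1.14, Papss1 between 0.42 and 0.91, and Hs3st1 between 0.57 and 0.71. Ugdh lay between -1.06 and -0.71 and Hs3st3b1 between -1.55 and -0.67.

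Other genes of the pathway, listed by role, were also examined. Of 37 tested, 0 were higher and 1, Tgfbr3, was lower, where 2.95% of all genes were called higher and 1.71% lower. With the block 3 were higher and 3 lower, near the blocked shares of 7.76% and 5.99% over all genes. Their median log2 fold change was 0.09. Tgfbr3, betaglycan, is a TGF-beta co-receptor that can carry heparan sulfate. It had 358, 224 and 249 in GFP-positive pools, against 701, 1028 and 624 in GFP-negative pools, with no overlap and a log2 fold change of -1.40 ± 0.26 (adjusted p = 0.026). Nrp1, a co-receptor for VEGF and semaphorins that can carry such chains, had 338, 192 and 188 in GFP-positive pools, against 782, 568 and 379 in GFP-negative pools, at -1.15 ± 0.32 (adjusted p = 0.0798, and 0.00809 with the block). Summed intensities of the endothelial and blood markers were 471 to 6104 on GFP-positive arrays and 13478 to 29952 on GFP-negative arrays. Much of these sums came from globin genes. Hbb-y alone had 162, 2495 and 1761 in GFP-positive pools, against 7040, 8857 and 12489 in GFP-negative pools. Kdr, an endothelial gene of the list, had 52.7, 174 and 92.2 in GFP-positive pools, against 765, 1099 and 1059 in GFP-negative pools. Summed intensities of lateral and intermediate mesoderm markers were 402 to 656 on GFP-positive and 2601 to 5899 on GFP-negative arrays. No marker was listed at 0 (the lowest value was 1.15), and their part in these and the other lower values was not tested. For the members that were higher, the presomitic and somitic markers summed to 5834 to 6478 on GFP-positive arrays and 1951 to 2459 on GFP-negative arrays, and the gut endoderm markers to 1650 to 3801 on GFP-positive and 914 to 1630 on GFP-negative arrays; their part was not tested either.

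Enzymes of the chondroitin sulfate branch, which shares the linker, gave 3 calls with the block: of 14 tested 2 were higher and 1 lower, and 0 passed in limma without it. With the block, 7.76% of all genes were called higher and 5.99% lower, and counts this small do not set the branch apart. The chondroitin 4-O-sulfotransferase Chst11 had 194, 179 and 138 in GFP-positive pools, against 112, 69.7 and 72.7 in GFP-negative pools, at 0.80 ± 0.22 (adjusted p = 0.0247 with the block). Chst7, a 6-O-sulfotransferase of the same chains, had 141, 183 and 183 in GFP-positive pools, against 112, 85.3 and 70.5 in GFP-negative pools, at 0.74 ± 0.21 (adjusted p = 0.0489 with the block). Chst15, which adds a further sulfate to chondroitin, had 84.8, 135 and 129 in GFP-positive pools, against 174, 846 and 918 in GFP-negative pools, at -1.93 ± 0.54 (adjusted p = 0.0119 with the block). Its GFP-negative value in pool 1 was far below those of pools 2 and 3.

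Of 10 genes of linker phosphorylation, donor supply and transport, Pxylp1, the phosphatase that acts on the linker xylose, passed with the block. Pxylp1 had 247, 443 and 385 in GFP-positive pools, against 164, 196 and 159 in GFP-negative pools, at 0.90 ± 0.25 (adjusted p = 0.0798, and 0.0232 with the block). Of 9 genes of heparanase and of breakdown in lysosomes, 0 passed in limma in either fit, and the one with the smallest p was Naglu, at 0.44 ± 0.22 (unadjusted p = 0.087). With the block 7.76% of all genes were called higher and 5.99% lower, so counts this small do not set these lists apart.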

How the data were processed

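Affymetrix arrays measured total RNA of sorted cells, amplified with a kit of repeated rounds, per the labels' protocols. The deposited values are linear intensities made with GCOS 1.4, per the submitters' processing notes; each array had a trimmed mean (2% at each end) of 150. Without detection calls, which were not used here, dim values may be background. The number of arrays limits the precision. Of 45101 probe sets, 64 were controls, 34945 had 1 gene symbol, 932 several and 9160 none. All 40 member genes were found in the RefSeq table (GRCm38.p6), and 0 sample columns were left unused.

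Fold changes are on the scale log2(intensity + 32), which understates them for dim genes. The filter asked for 3 of 6 arrays to reach their own 40th percentile (3 of 5 without an array, 2 of 4 without a pool). limma 3.58.1 (R 4.3.3, eBayes with a variance trend) was fitted to all kept probe sets, and to all genes, each represented by the brightest probe set left. Group was the only term, with Benjamini-Hochberg adjustment and a threshold of 0.05. The fits with and without the pool as a block were run on simulated data with equal noise on all arrays of a probe set. That run does not cover noise that differs between pools, and it set a limit only on false calls of the blocked fit.

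Same-numbered arrays came from 1 embryo pool, per the labels, and their deviations from the means of their groups had correlations of 0.542, 0.286 and 0.436. Between pools 2 and 3 they were 0.38 and 0.279, and between pool 1 and the others -0.523 to -0.358, so the correlations set pool 1 apart but do not separate pools 2 and 3. The reported fit does not use the pairing by pool, so spread between pools enters its standard errors. The fit with the pool as a block compares arrays within pools and is an alternative. Where the fits differ, as for Gpc3, a miss in the reported fit is not evidence of no change. Members and lists were chosen with earlier results of these data known. Genes described with a value on every array were those called in either fit or changed by at least 1 on the log2 scale, with others added after their values were seen (Gpc6, Hspg2, Sdc2, B3gat3, Hs6st2 and Hs3st3a1). Of the other pathway genes, those called in either fit were named, and where a sublist had none, its gene with the smallest p. Alternatives were the offset, normalization, filter, variance model, block, threshold, the mean over probe sets, and each array or pool left out. The counts over genes bright in both groups, with at least 1 array of each group at or above its 40th percentile, were added after seeing the data.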

Additional observations from a re-analysis of the deposited data

How the results depend on the processing

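Precision is limited by 3 arrays per group. The alternatives were followed for 18 genes: the 11 members called in either fit or changed by at least 1, and the named other pathway genes. No fold change of these 18 reversed. Gpc6, described above but not among them, changed sign: it had 0.67 with all arrays, -0.88 without pool 1 and -1.12 without GFP-negative array 1. The negative values came from another probe set, which then had the highest mean. The first probe set still had a mean difference of 0.46 in pools 2 and 3. Of the values of the 18, 286 kept their side of the threshold, 63 passed where the reported fit did not, and 22 no longer passed. The 22 belong to Agrn, Sulf1, Gpc5 and Tgfbr3, all in fits with fewer arrays.

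With the replicate block, heparan sulfate genes numbered 8 higher and 2 lower, probe sets 9 and 2, and other pathway genes 3 and 3. Leaving out 1 array or pool, without the block, gave 0 to 11 genes higher and 0 to 9 lower, 0 to 17 and 0 to 12 probe sets, and 0 to 6 and 0 to 6 other pathway genes. In these fits 0.0776% to 18.9% of all genes were called higher and 0% to 18.5% lower. The same pools left out with the block gave 3 to 12 genes higher and 1 to 9 lower, 3 to 20 and 1 to 14 probe sets, and 0 to 7 and 3 to 8 other pathway genes. There, 3.62% to 21.5% of all genes were called higher and 2.52% to 21.6% lower, with 1 residual degree of freedom in each fit. At a threshold of 0.01, 0 genes were higher, 1 probe set was higher and 0 other pathway genes were lower. At 0.1, 1 gene was lower, and 3 other pathway genes were higher and 3 lower. Without the filter 2 probe sets were higher, and with the mean over probe sets 1 other pathway gene was higher and 3 were lower. Shares over all features are not given here for the other thresholds, the unfiltered fit, or probe sets with arrays left out. Those counts show sensitivity only. The offset, quantile normalization, the variance model and the stricter filter (2 genes, without Gpc5, which was not tested) left the remaining counts within 1.5 times; Gpc5 had 1.15 with an offset of 16 and 0.44 with one of 64. The causes of these differences were not tested. The fits that left out an array or a pool also had fewer arrays.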
